A study of Mus musculus with 12 samples.

Results

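The genes described here mark microglia, the resident macrophages of the brain, and macrophages in general. They are 47 genes listed by symbol, and their probe sets were taken wherever the array annotation paired a probe set with that gene alone. Of the 47, 46 were measured, on 79 probe sets, among 18193 genes in all, and the other 1 is not analysed here. They were set out in 7 groups by role: 8 genes of homeostatic microglia (among them Cx3cr1, P2ry12, Tmem119 and Sall1), 4 cytokine receptors, 11 leukocyte surface proteins, 8 proteins of lysosomes, phagosomes and granules, 4 transcription factors, 8 signalling and cytoskeletal proteins and 3 subunits of the phagocyte NADPH oxidase. The cells measured were not microglia but cultured astrocytes, and the question put to the genes was whether they moved together, as they would if the share of microglia or macrophages among the picked cells changed.

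RNA was hybridised to 12 Affymetrix arrays, 3 for each of 4 groups. Cultures of astrocytes expressing eGFP, a green fluorescent protein, came from neonatal mice (3 d in the sample labels, 2 d in the protocol text) or from adult mice of 6 to 8 weeks. They spent 22 h on a brain section before being picked by their fluorescence. The section came from an APdE9 mouse, whose chimeric mouse and human APPSwe and PS1-dE9 transgenes are driven by the prion promoter, or from a wild-type C57Bl/6j littermate. Cultures of both ages had been shaken for 2 h to remove microglia, and the protocol reports 99.6% ± 0.6% GFAP-positive cells and less than 0.4% microglia by staining for Iba and CD11b, the products of Aif1 and Itgam. For adult cells the protocol used a Percoll step and DMEM/F12 medium with G5, for neonatal cells DMEM with no Percoll or G5, so isolation and medium cannot be told apart from age. Each array is labelled a biological replicate, and samples are said to have been pooled (n = 3) ahead of the RNA extraction. A p-value here thus rests on the spread between pools alone, some of which may be technical.

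Microglia and other macrophages depend on signals through CSF1R, the receptor for CSF1 and interleukin 34, and their identity is set by the transcription factor PU.1 (gene Spi1) together with RUNX, IRF and Ikaros family factors. They sense nucleotides and chemokines through P2Y receptors and CX3CR1, take up particles through integrin CD11b/CD18 (Itgam and Itgb2), and break them down in lysosomes rich in CD68 and lysozyme. Many of these genes are shared by all leukocytes (Ptprc, Cd53, Coro1a, Vav1), while P2ry12, Tmem119, Sall1 and Siglech mark microglia within the brain. Astrocytes normally express few of them.

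PU.1 binds short purine-rich sites, and the letters GAGGAA make up the core searched for here, on both strands. Promoter sequences of RefSeq (build GRCm38.p6), each from 250 bases before to 50 bases after a gene's start, were matched for 31 of the 46 genes, with 41 windows in all because some genes have several starts. The 100 bases before the start are shown, 5′ to 3′ on the gene's own strand, for genes on which the results below turn. Itgam (chr7:128062540-128062639, plus strand), Cd53 (chr3:106790150-106790249, minus strand), Laptm5 (chr4:130913216-130913315, plus strand) and Aif1 (chr17:35176053-35176152, minus strand) hold the core in this stretch, and Lyz2 (chr10:117282273-117282372, minus strand) and Mpeg1 (chr19:12460670-12460769, plus strand), which differed most between the sections or the ages, do not. Capitals mark GAGGAA or, read from the other strand, TTCCTC.
Itgam: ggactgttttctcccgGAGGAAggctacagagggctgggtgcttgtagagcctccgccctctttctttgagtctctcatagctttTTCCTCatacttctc
Cd53: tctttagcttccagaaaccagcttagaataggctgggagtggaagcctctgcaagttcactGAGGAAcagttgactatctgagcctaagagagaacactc
Laptm5: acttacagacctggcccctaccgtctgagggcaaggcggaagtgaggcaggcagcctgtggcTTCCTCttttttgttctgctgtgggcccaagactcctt
Aif1: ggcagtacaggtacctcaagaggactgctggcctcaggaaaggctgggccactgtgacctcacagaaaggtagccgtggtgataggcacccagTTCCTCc
Lyz2: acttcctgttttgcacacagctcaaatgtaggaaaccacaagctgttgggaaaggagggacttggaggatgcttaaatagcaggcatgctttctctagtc
Mpeg1: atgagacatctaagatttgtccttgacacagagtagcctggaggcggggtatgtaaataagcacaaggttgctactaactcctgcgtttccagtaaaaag
In Itgam the matches begin 84 and 15 bases before the start, in Cd53 39, in Laptm5 38 and in Aif1 7 bases before it. Over the whole windows GAGGAA was present in 17 of 41 (41.5%), against 28.3% of all 32851 promoter windows. The RUNX core TGTGGT was in 12 of 41 (29.3% against 16.8%) and the IRF element (GAAA, any 2 bases, GAAA) in 4 (9.76% against 3.44%). The C/EBP letters TTGCGCA were in none (against 2.02%) and TATAAA in 4 (9.76% against 13.6%). These are counts of letters in a fixed window, searched on both strands with matches of different motifs free to overlap, and no binding was measured.

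The table gives log2 signals centred probe set by probe set, so that each has a median of 0 over the 12 arrays. A value of 0 therefore lies between the groups by construction, levels and signal over background cannot be read, and the presence of a marker in a group cannot be checked. Differences between arrays can be read, and a gene's value is averaged over its single-gene probe sets. Within groups, arrays correlated between 0.57 and 0.884 over all genes, lowest between neonatal wild-type replicates 1 and 3. Neonatal wild-type replicate 1 stood apart for the genes described here: it was the highest of its group for 40 of the 46 (87%), where it was the highest for 32.5% of all genes. It lay above its group mean by a median of 0.38 (log2) over the 46 genes. Counts, medians and component shares of the section comparison in neonatal cells are given with and without it. As it was singled out by its high values in these genes, leaving it out raises most of their APdE9 differences by construction. The values without it are therefore no separate evidence for a section difference. In RNA of many cells, fewer cells of a type and less RNA per cell cannot be told apart.

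**Figure D1:**
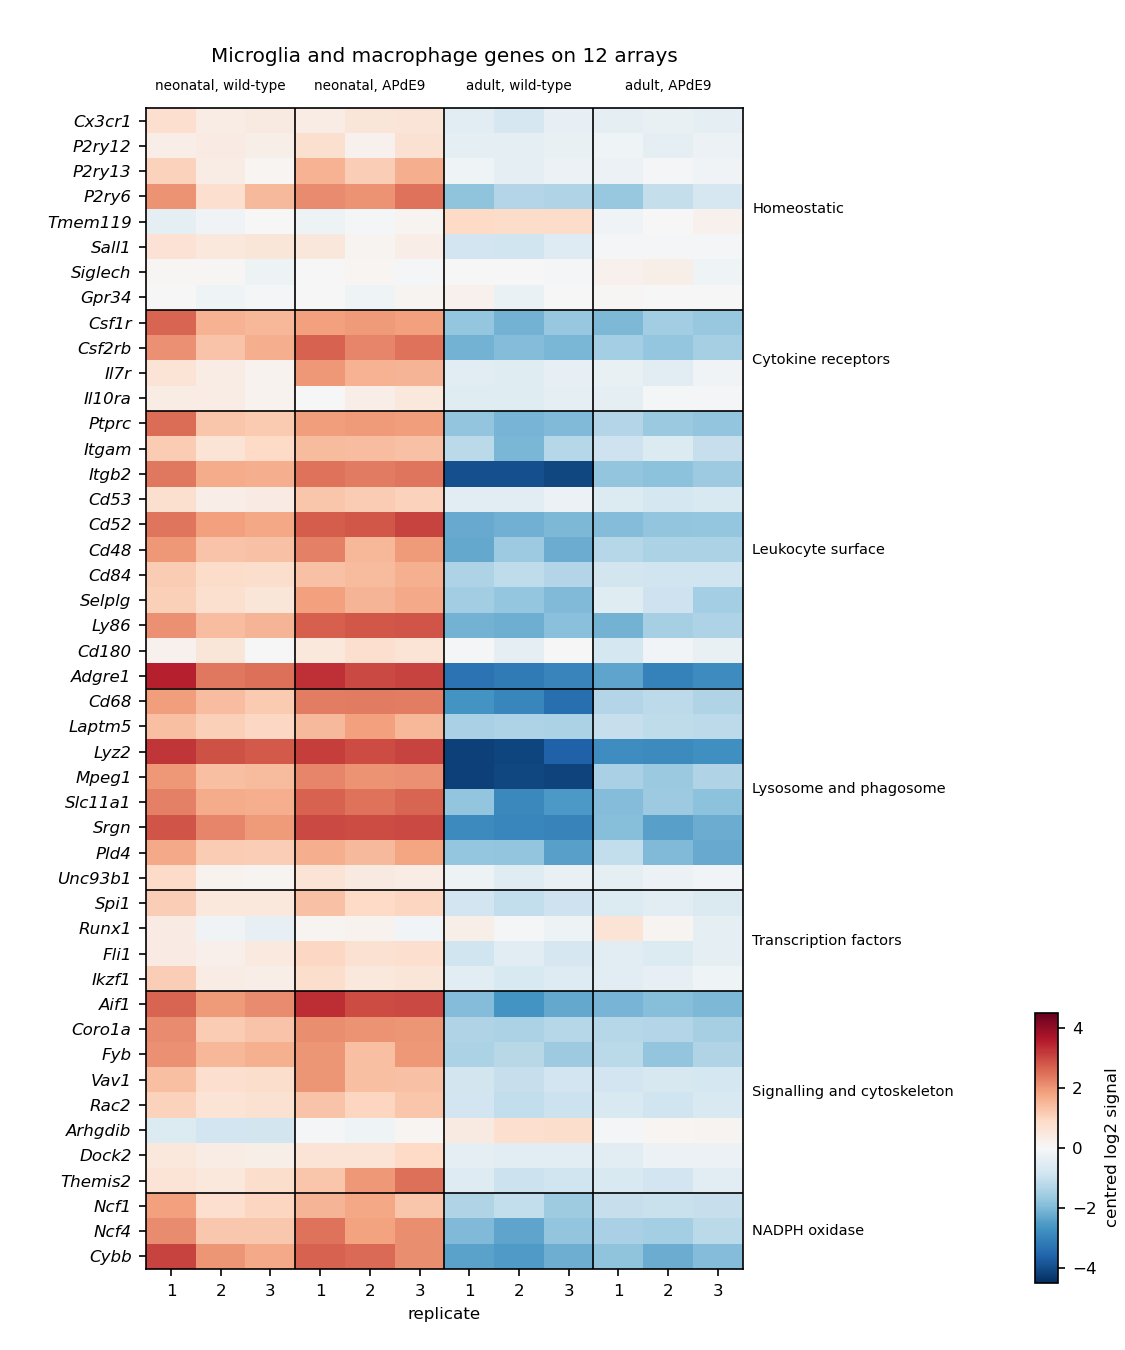
Centred log2 signal of the 46 genes (rows, by role) on the 12 arrays (columns, by group and replicate), with red above and blue below the median of the 12 arrays. Most rows are red on the 6 neonatal arrays and blue on the 6 adult arrays, and Tmem119 and Arhgdib are reddest in adult cells on wild-type sections.

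The largest differences of these genes were between the ages of the cultured cells. On wild-type sections 40 of the 46 genes were lower in adult than in neonatal cells, 2 were higher (Arhgdib and Tmem119) and 4 did not pass the test (Cd180, Siglech, Runx1 and Gpr34). A gene was called where the adjusted p of limma's moderated test (Benjamini-Hochberg over all 18193 genes) was under 0.05, and 15.2% of all genes were called lower and 14.9% higher in this comparison. On APdE9 sections 41 were lower and 0 higher (against 11.9% and 11.7% of all genes), and Runx1, Gpr34, Tmem119, Siglech and Arhgdib did not pass. At an unadjusted p under 0.05, where the share of all genes was not computed, the limma fit had 0 higher and 41 lower there too. The median log2 difference of the 46 genes was -2.47 on wild-type and -2.54 on APdE9 sections, against 0.01 and 0.05 for all genes. Those lower on both sections numbered 40, of which 25 differed by a log2 value of 2 or more on both and 8 by 4 or more.

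The cytokine receptors were all lower in adult cells on both sections. Csf1r, the receptor on which microglial survival depends, read 2.63, 1.57 and 1.51 on the 3 arrays of neonatal cells on wild-type sections and -1.75, -2.14 and -1.69 on those of adult cells. On APdE9 sections it read 1.86, 1.90 and 1.83 in neonatal and -2.01, -1.57 and -1.71 in adult cells. The ages did not overlap on either section, and the difference was -3.77 ± 0.25 on wild-type sections (± SE, 3 arrays in each group, limma adjusted p = 1.49e-07), 13.6-fold lower in adult cells. On APdE9 sections it was -3.63 ± 0.25 (adjusted p = 2.88e-07). Its 3 probe sets ranged from -5.25 to -2.51 on wild-type sections, all called lower. Csf2rb, the shared chain of the GM-CSF and interleukin 3 and 5 receptors, differed by -3.70 and -4.02 on the 2 sections, Il7r by -0.86 and -2.01 and the interleukin 10 receptor gene Il10ra by -0.78 and -0.44.

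The genes that mark homeostatic microglia within the brain had the smallest median of the 7 role groups, at -0.74 over the 8 on wild-type and -0.60 on APdE9 sections. These are medians of gene values averaged over probe sets. Cx3cr1, the fractalkine receptor, read 0.75, 0.32 and 0.40 in neonatal and -0.52, -0.75 and -0.37 in adult cells on wild-type sections, and 0.34, 0.56 and 0.59 and -0.39, -0.35 and -0.43 on APdE9 sections. All 6 neonatal values were above all 6 adult values, with differences of -1.04 ± 0.13 (adjusted p = 4.3e-05) and -0.89 ± 0.13. The 2 probe sets of Cx3cr1 were at -1.82 and -0.25 on wild-type and at -1.71 and -0.06 on APdE9 sections, with 1 called on each. The purinergic receptor gene P2ry12 read 0.31, 0.38 and 0.27 in neonatal and -0.44, -0.39 and -0.34 in adult cells on wild-type sections, and 0.71, 0.19 and 0.68 and -0.19, -0.43 and -0.25 on APdE9 sections. It too was lower in adult cells without overlap, by -0.71 ± 0.12 (adjusted p = 0.00081) and -0.81 ± 0.12, as log2 differences. P2ry6, a UDP receptor tied to phagocytosis, had the largest difference of the 8 (-2.91 and -3.40).

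Tmem119, a membrane protein of microglia, ran the other way on wild-type sections. It read -0.39, -0.15 and 0.03 in neonatal and 0.89, 0.84 and 0.84 in adult cells there, and -0.22, -0.10 and 0.14 and -0.16, -0.03 and 0.19 on APdE9 sections. The 3 adult wild-type arrays were above the other 9, and the age difference was 1.03 ± 0.13 on wild-type sections (limma adjusted p = 4.57e-05) and 0.06 ± 0.13 on APdE9 sections (adjusted p = 0.786). Sall1, a transcriptional regulator of microglial identity, read 0.66, 0.49 and 0.53 in neonatal and -0.85, -0.88 and -0.58 in adult cells on wild-type sections. On APdE9 sections it read 0.50, 0.11 and 0.29 in neonatal and -0.08, -0.10 and -0.08 in adult cells. It was lower in adult cells without overlap on both sections, by -1.33 ± 0.11 (adjusted p = 1.12e-06) and by -0.39 ± 0.11 (adjusted p = 0.0207). Its 2 probe sets were at -2.07 and -0.60 on wild-type sections, both called, and at -0.60 and -0.17 on APdE9 sections, 1 called. The lectin gene Siglech and the receptor gene Gpr34 were called in no comparison, and their log2 differences lay between -0.02 and 0.12 in the 5 comparisons made.

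Among the 11 leukocyte surface genes 10 were lower in adult cells on wild-type sections and all 11 on APdE9 sections. Adgre1, an adhesion receptor in wide use as a macrophage marker, read 3.49, 2.36 and 2.48 in neonatal and -3.33, -3.17 and -2.97 in adult cells on wild-type sections, and 3.29, 2.97 and 3.03 and -2.36, -3.03 and -2.84 on APdE9 sections. The ages were far apart on both, at -5.94 ± 0.26 (61.3-fold lower in adult cells, adjusted p = 4.11e-09) and -5.85 ± 0.26 (57.5-fold lower). Ptprc, the common leukocyte antigen CD45, read 2.52, 1.24 and 1.17 in neonatal and -1.78, -2.10 and -1.98 in adult cells on wild-type sections, and 1.88, 1.93 and 1.87 and -1.32, -1.68 and -1.76 on APdE9 sections. It was lower in adult cells by -3.60 ± 0.28 and -3.48 ± 0.28, without overlap. Its probe sets disagreed in size, from -6.22 to -0.97 on wild-type sections.

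Itgam and Itgb2 encode the 2 chains of the complement receptor integrin CD11b/CD18, and both were lower in adult cells on both sections. Itgam, the CD11b chain, read 1.15, 0.62 and 0.91 in neonatal and -1.22, -2.07 and -1.28 in adult cells on wild-type sections, and 1.44, 1.38 and 1.33 and -0.92, -0.62 and -1.04 on APdE9 sections. Its differences were -2.42 ± 0.20 (5.34-fold lower in adult cells, adjusted p = 1.6e-06) and -2.25 ± 0.20. Itgb2, the CD18 chain that other leukocyte integrins share, read 2.37, 1.66 and 1.64 in neonatal and -3.94, -3.95 and -4.09 in adult cells on wild-type sections, and 2.44, 2.34 and 2.42 and -1.77, -1.85 and -1.64 on APdE9 sections. Its differences were -5.89 ± 0.16 (59.2-fold lower, adjusted p = 8.16e-11) and -4.16 ± 0.16. For both genes the 6 neonatal arrays were above the 6 adult arrays.

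Of the other surface genes, Cd52, a small GPI-anchored leukocyte glycoprotein, read 2.42, 1.85 and 1.73 in neonatal and -2.28, -2.16 and -2.03 in adult cells on wild-type sections, and 2.73, 2.80 and 3.04 and -1.96, -1.78 and -1.73 on APdE9 sections. Ly86, the MD-1 partner of CD180, read 2.07, 1.38 and 1.52 and -2.11, -2.21 and -1.87 on wild-type sections, and 2.68, 2.78 and 2.83 and -2.11, -1.49 and -1.38 on APdE9 sections, neonatal cells first. Both were lower in adult cells without overlap. Cd52 differed by -4.16 ± 0.16 and -4.68 ± 0.16 and Ly86 by -3.72 ± 0.20 and -4.42 ± 0.20 (limma adjusted p from 9.49e-10 to 2.68e-08). Cd48, Cd84, Selplg and Cd53 differed by -3.56 to -0.88 on wild-type and by -3.27 to -1.84 on APdE9 sections, all called lower. Cd180 itself was lower on APdE9 sections (-1.04 ± 0.18, adjusted p = 0.000783) and at -0.43 ± 0.18 on wild-type sections (adjusted p = 0.0926).

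The 8 genes of lysosomes, phagosomes and granules were lower in adult cells on both sections and had the largest median of the 7 role groups, -4.39 on wild-type and -3.60 on APdE9 sections. Lyz2, the lysozyme of macrophages, read 3.23, 2.86 and 2.76 in neonatal and -4.19, -4.12 and -3.65 in adult cells on wild-type sections, and 3.12, 2.95 and 3.05 and -2.78, -2.86 and -2.76 on APdE9 sections. The adult arrays lay far below the neonatal ones, and adult wild-type arrays below adult APdE9 arrays. Its difference of -6.94 ± 0.15 on wild-type sections (122-fold lower in adult cells, adjusted p = 1.25e-11) was the largest of all 46 genes. On APdE9 sections it was -5.84 ± 0.15 (57.3-fold lower).

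Mpeg1, the pore-forming perforin-2 of macrophages, read 1.95, 1.36 and 1.41 in neonatal and -4.21, -4.08 and -4.18 in adult cells on wild-type sections, and 2.20, 2.02 and 2.07 and -1.46, -1.68 and -1.36 on APdE9 sections. Cd68, the lysosomal glycoprotein macrosialin, read 1.88, 1.39 and 1.19 and -2.70, -2.93 and -3.38 on wild-type sections, and 2.30, 2.33 and 2.31 and -1.31, -1.19 and -1.36 on APdE9 sections, neonatal cells first. Both were lower in adult cells and had 4 levels that did not overlap, rising from the adult wild-type to the adult APdE9, the neonatal wild-type and the neonatal APdE9 arrays. The age differences were -5.73 ± 0.14 (53.1-fold lower) and -3.60 ± 0.14 for Mpeg1, and -4.49 ± 0.18 (22.5-fold lower) and -3.60 ± 0.18 for Cd68.

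Srgn, the granule proteoglycan serglycin, read 2.84, 2.19 and 1.92 in neonatal and -2.88, -2.94 and -3.00 in adult cells on wild-type sections, and 2.96, 2.95 and 2.96 and -1.92, -2.44 and -2.24 on APdE9 sections. Slc11a1, the metal transporter NRAMP1 of phagosomes, read 2.27, 1.66 and 1.64 and -1.78, -2.89 and -2.59 on wild-type sections, and 2.64, 2.46 and 2.61 and -1.94, -1.64 and -1.86 on APdE9 sections, neonatal cells first. Neither gene overlapped between the ages. Srgn differed by -5.25 ± 0.19 and -5.16 ± 0.19 and Slc11a1 by -4.28 ± 0.24 and -4.38 ± 0.24 (limma adjusted p from 8.76e-10 to 4.9e-08). Laptm5, a lysosomal membrane protein of leukocytes, was lower by -2.54 ± 0.12 on wild-type sections as the mean of probe sets that ranged from -7.84 to 0.06. The phospholipase D family gene Pld4 was at -3.29 and -3.41, and Unc93b1, which carries Toll-like receptors to endosomes, at -0.74 and -0.71, all called.

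Of the 4 transcription factors 3 were lower in adult cells on both sections, and the median of the 4 was -1.12 on wild-type and -1.13 on APdE9 sections. Spi1, which encodes PU.1, read 1.09, 0.47 and 0.48 in neonatal and -0.86, -1.12 and -0.93 in adult cells on wild-type sections, and 1.31, 0.91 and 0.96 and -0.63, -0.47 and -0.65 on APdE9 sections. The ages did not overlap, and the differences were -1.65 ± 0.16 (adjusted p = 5.75e-06) and -1.64 ± 0.16. Ikzf1, which encodes Ikaros, differed by -1.18 and -0.97 and the ETS factor gene Fli1 by -1.05 and -1.30. Runx1 was called in no comparison and differed by 0.02 ± 0.25 and 0.04 ± 0.25 between the ages.

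Of the 8 signalling and cytoskeletal genes 7 were lower in adult cells on each section. Aif1, the calcium-binding protein Iba1 used in the staining of the cultures, read 2.61, 1.91 and 2.11 in neonatal and -1.94, -2.68 and -2.31 in adult cells on wild-type sections, and 3.33, 2.95 and 2.96 and -2.09, -1.91 and -2.01 on APdE9 sections. Its differences were -4.52 ± 0.20 (22.9-fold lower in adult cells, adjusted p = 4.82e-09) and -5.08 ± 0.20 (33.8-fold lower), with no overlap. Arhgdib read -0.60, -0.85 and -0.83 in neonatal and 0.42, 0.74 and 0.78 in adult cells on wild-type sections, and -0.10, -0.21 and 0.10 and -0.09, 0.09 and 0.14 on APdE9 sections. It was higher in adult cells on wild-type sections by 1.41 ± 0.12 (adjusted p = 1.93e-06) and at 0.12 ± 0.12 on APdE9 sections (adjusted p = 0.552), where the ages overlapped. The actin regulator Coro1a, the adaptor Fyb, the exchange factors Vav1 and Dock2, the GTPase Rac2 and Themis2 differed by -3.15 to -0.84 on wild-type and by -3.39 to -1.04 on APdE9 sections, all called lower.

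The NADPH oxidase makes the oxidative burst of phagocytes, and all 3 of its subunit genes were lower in adult cells. Cybb, the catalytic subunit gp91phox, read 3.03, 1.99 and 1.71 in neonatal and -2.41, -2.56 and -2.18 in adult cells on wild-type sections, and 2.67, 2.55 and 2.08 and -1.81, -2.25 and -1.94 on APdE9 sections. The ages did not overlap and differed by -4.63 ± 0.28 (24.7-fold lower in adult cells, adjusted p = 7.66e-08) and -4.43 ± 0.28. The cytosolic subunits Ncf4 and Ncf1 differed by -3.56 and -2.54 on wild-type and by -3.52 and -2.53 on APdE9 sections.

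**Figure D2:**
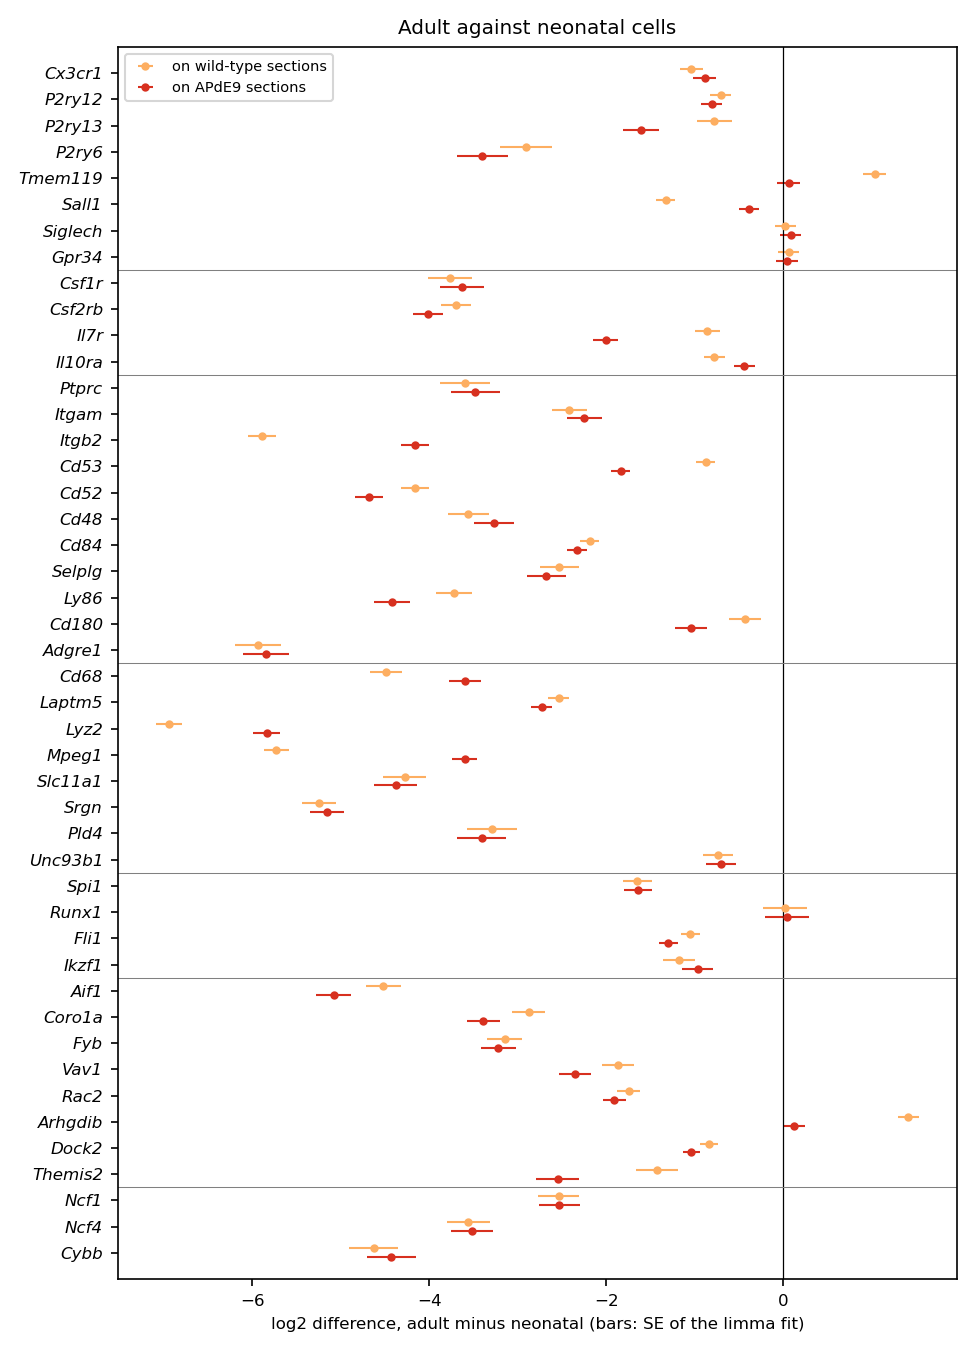
Log2 difference between adult and neonatal cells (horizontal axis) of the 46 genes (rows, separated by role) on wild-type (orange) and APdE9 sections (red), with bars for the SE of the limma fit. Nearly all points lie left of 0, from the Lyz2 difference of -6.94 to values near 0 for Siglech, Gpr34 and Runx1, and Tmem119 and Arhgdib lie right of 0 on wild-type sections.

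Of the calls for age, 41 of 42 on wild-type and 39 of 41 on APdE9 sections were kept in each of 21 alternative fits. Dock2 on wild-type sections was not called with the median of its probe sets (adjusted p = 0.265), and on APdE9 sections the calls of Sall1 and Il10ra were lost in some of the fits. Sall1 was at an adjusted p of 0.0853 without neonatal APdE9 replicate 1 and 0.0601 without adult APdE9 replicate 2. Il10ra was at 0.0656 and 0.0903 without neonatal APdE9 replicates 2 and 3 and 0.0882 without adult APdE9 replicate 1. It was also lost with only the arrays compared (adjusted p = 0.0672) and with the median of its probe sets (0.0825). Cd180 on wild-type sections passed with array weights (0.00115) and without neonatal wild-type replicate 3 (0.0466) or adult APdE9 replicate 1 (0.0455).

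On an APdE9 section neonatal cells held more transcript of part of these genes. Relative to wild-type sections 12 of the 46 genes were higher and 0 lower, against 1.21% and 2.55% of all genes called higher and lower. They were Il7r, Themis2, Ly86, P2ry13, Selplg, Aif1, Cd52, Cd68, Csf2rb, Arhgdib, Cd53 and Cd84, from 1.30 for Il7r to 0.54 for Cd84. At an unadjusted p under 0.05 the limma fit had 26 higher and 1 lower. The share of all genes at that threshold was not computed, so this count has no background to be read against. The differences of 43 of the 46 lay above 0 (50.5% of all genes did), and 20 had no overlap between the sections with APdE9 higher (7.31% of all genes). The median was 0.41, against 0.00 for all genes. Without neonatal wild-type replicate 1 the median was 0.63, 45 of the 46 lay above 0 (49.7% of all genes) and 37 had no overlap (12% of all genes). The direction of this change was fixed in advance, because the array was picked for its high values in these genes. Fewer wild-type arrays also make a lack of overlap easier to reach. Over all genes 220 were higher and 464 lower, a split that became 314 and 422 with quantile normalization, under which 17 of the 46 genes were higher and 0 lower. Of the called genes 5 were leukocyte surface genes, 3 signalling and cytoskeletal genes, 2 cytokine receptors, and 1 each came from the homeostatic and lysosomal genes. No transcription factor and no NADPH oxidase subunit was called.

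Il7r, the interleukin 7 receptor chain known best from lymphocytes, had the largest difference. It read 0.62, 0.35 and 0.17 on the wild-type and 1.95, 1.58 and 1.52 on the APdE9 arrays, and the groups were more than their own spread apart. The difference was 1.30 ± 0.14 (limma, n = 3 arrays per group, adjusted p = 0.000463), 2.47-fold higher on APdE9 sections. Themis2, a signalling adaptor of B cells and macrophages, read 0.63, 0.46 and 0.78 and 1.25, 1.95 and 2.47 in the same order. It differed by 1.26 ± 0.24 (adjusted p = 0.0119), and its 3 APdE9 arrays were spread over more than a log2 unit. P2ry13, an ADP receptor of microglia, read 1.02, 0.32 and 0.10 on wild-type and 1.55, 1.09 and 1.65 on APdE9 arrays, a difference of 0.95 ± 0.20 (adjusted p = 0.0228).

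The surface genes called were Ly86 (1.11 ± 0.20, adjusted p = 0.00961), Selplg (0.90 ± 0.22, adjusted p = 0.0389), Cd52 (0.86 ± 0.16, adjusted p = 0.0105), Cd53 and Cd84. Selplg, the P-selectin ligand of leukocytes, read 1.07, 0.73 and 0.54 on wild-type and 1.83, 1.53 and 1.69 on APdE9 arrays. The tetraspanin gene Cd53 read 0.71, 0.29 and 0.37 and 1.26, 1.13 and 1.04 and differed by 0.69 ± 0.11 (adjusted p = 0.00621). In none of these 5 genes did a neonatal APdE9 array fall below a neonatal wild-type array. For Aif1 and Cd68, whose values are given above, the differences were 0.87 ± 0.20 (adjusted p = 0.0334) and 0.83 ± 0.18 (adjusted p = 0.0246), again with no overlap. Arhgdib was higher by 0.69 ± 0.12 (adjusted p = 0.00833) and Csf2rb by 0.78 ± 0.17 (adjusted p = 0.0246).

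Several genes that define the lineage were not called. Csf1r differed by -0.04 ± 0.25 (limma adjusted p = 0.982), Cx3cr1 by 0.01 ± 0.13, Lyz2 by 0.09 ± 0.15, Cybb by 0.19 ± 0.28 and P2ry12 by 0.21 ± 0.12, all with overlapping arrays. Adgre1 was at 0.32 ± 0.26, Ptprc at 0.25 ± 0.28, Spi1 at 0.38 ± 0.16 and Itgam at 0.49 ± 0.20. Of these 9 genes only Itgam had no overlap between the sections. In Csf1r, Ptprc, Adgre1, Cybb and Cx3cr1 neonatal wild-type replicate 1 was higher than all 5 other neonatal arrays. Without that array Csf1r was at 0.32 ± 0.15 (limma adjusted p = 0.344), Cybb at 0.58 ± 0.19, Adgre1 at 0.68 ± 0.18, Lyz2 at 0.23 ± 0.14, Cx3cr1 at 0.14 ± 0.12, P2ry12 at 0.20 ± 0.14 and Itgam at 0.62 ± 0.22, none called. Ptprc (0.69 ± 0.13, adjusted p = 0.0139) and Spi1 (0.58 ± 0.13, adjusted p = 0.0268) were then called higher.

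The number of calls in neonatal cells depended on single arrays. It was 2 without neonatal wild-type replicate 2, 6 without replicate 3 and 23 without replicate 1 of the same group, and 7, 8 and 6 without neonatal APdE9 replicates 1, 2 and 3. It was 5 when only the 6 neonatal arrays were fitted. Over all genes 220 were higher and 464 lower with all arrays. These counts were 76 and 187 without neonatal wild-type replicate 2, 182 and 299 without replicate 3 and 252 and 509 without replicate 1. The rise to 23 came on leaving out the array picked for its high values in these genes. In the list that follows, each value is the adjusted p without the array named. Il7r and Cd53 kept their calls in all 21 alternatives, with 2 of 2 probe sets called for Il7r and 1 of 2 for Cd53. Leaving out neonatal wild-type replicate 2 ended the calls of P2ry13 (0.114), Csf2rb (0.103), Cd52 (0.0639), Cd84 (0.0966), Selplg (0.15), Ly86 (0.057), Cd68 (0.115), Aif1 (0.163), Arhgdib (0.0516) and Themis2 (0.0662). Leaving out replicate 3 of that group did so for P2ry13 (0.0771), Csf2rb (0.0731), Cd84 (0.0689), Selplg (0.126), Cd68 (0.0863) and Aif1 (0.0993). When neonatal APdE9 replicate 1 was left out, calls ended for P2ry13 (0.0893), Csf2rb (0.102), Selplg (0.138), Cd68 (0.0741) and Aif1 (0.131). With replicate 2 of that group left out, they ended for Cd84 (0.052), Selplg (0.0732), Cd68 (0.0788) and Aif1 (0.0671), and with replicate 3 left out for P2ry13 (0.0799), Csf2rb (0.0688), Cd84 (0.0666), Selplg (0.0941), Cd68 (0.0655) and Aif1 (0.0613). Through the shared estimate of spread, Selplg was also lost without adult wild-type replicate 2 (0.0605) and Selplg and Aif1 without adult APdE9 replicate 2 (0.06 and 0.0514). Without neonatal wild-type replicate 1, 11 more genes were called higher (adjusted p from 0.0012 to 0.042): Ptprc, Itgb2, Laptm5, Mpeg1, Srgn, Spi1, Coro1a, Vav1, Rac2, Ncf1 and Ncf4. With the replicate number as a block, 17 genes were called, adding Laptm5 (0.0361), Mpeg1 (0.0347), Srgn (0.0298), Vav1 (0.0384) and Rac2 (0.028).

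**Figure D3:**
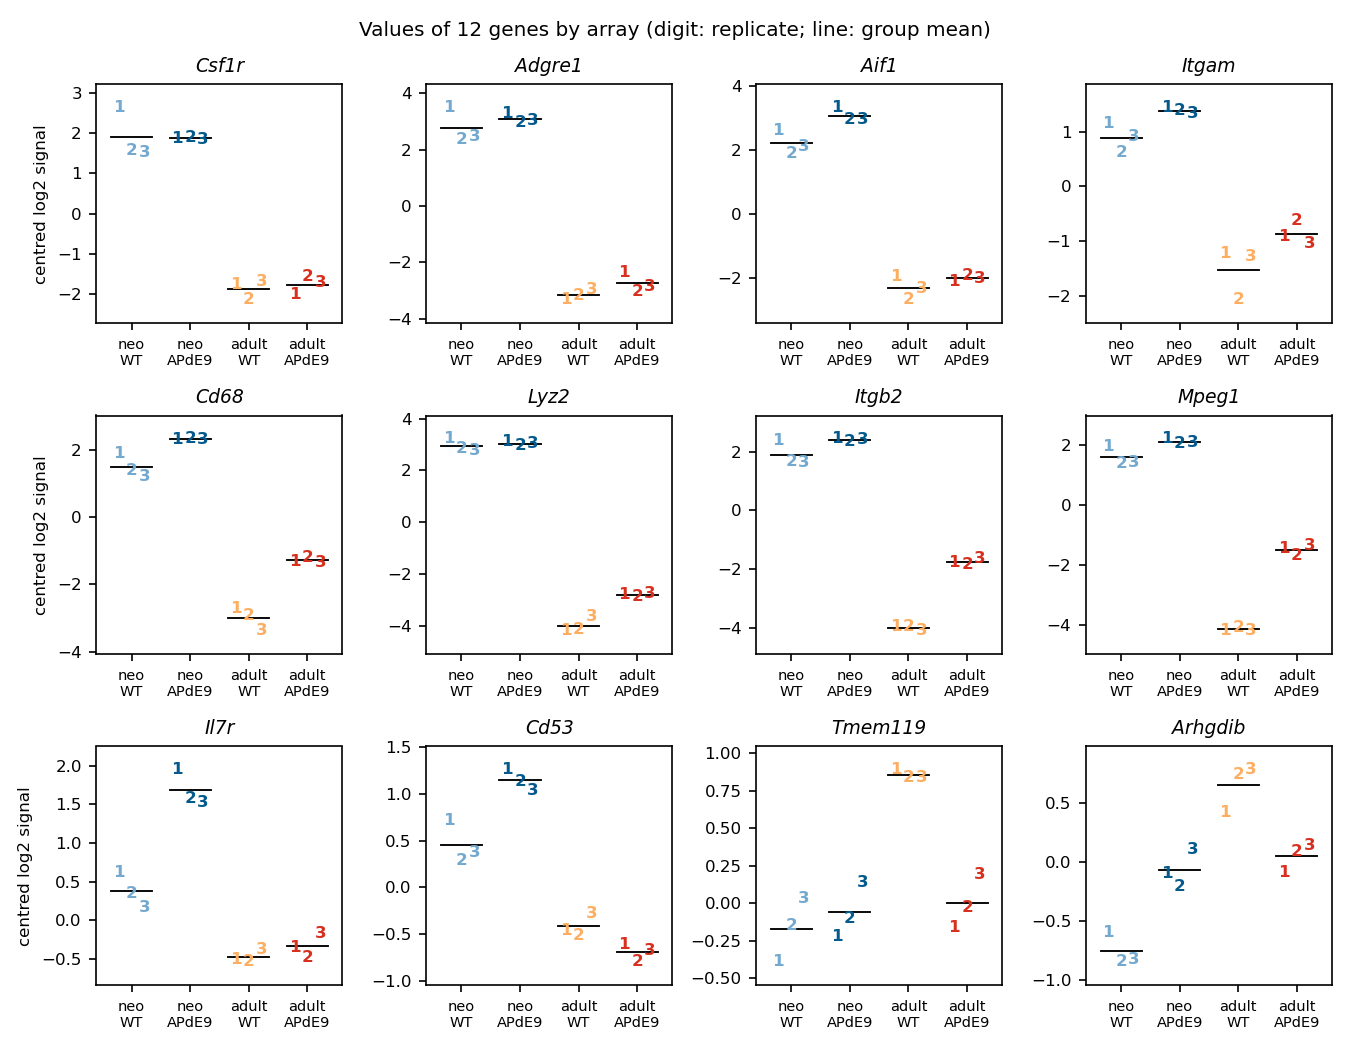
Centred log2 signal (vertical axis, its own range in each panel) of 12 genes by group, with each digit an array named by its replicate number and each line a group mean. Csf1r, Adgre1 and Aif1 separate the ages, Cd68, Lyz2, Itgb2 and Mpeg1 also separate the sections in adult cells, and Il7r and Cd53 separate the sections in neonatal cells.

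In adult cells 4 genes led the difference between the sections: Mpeg1, Itgb2, Cd68 and Lyz2. Relative to wild-type sections 9 of the 46 genes were higher on APdE9 sections and 2 lower, against 8.26% and 9.4% of all genes. The 9 were Mpeg1, Itgb2, Cd68, Lyz2, Selplg, Srgn, Sall1, Itgam and Cd84, and the 2 were Tmem119 and Arhgdib. The differences of 40 of the 46 lay above 0 (60% of all genes did), with a median of 0.30 (0.05 for all genes). Of the 8 lysosomal genes 4 were higher, of the 11 surface genes 4, and no cytokine receptor, transcription factor or NADPH oxidase subunit was called.

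Mpeg1 was higher on APdE9 sections by 2.66 ± 0.14 (limma, n = 3 arrays per group, adjusted p = 2.03e-07), 6.32-fold, and Itgb2 by 2.24 ± 0.16 (adjusted p = 2.03e-06), 4.72-fold. Cd68 was higher by 1.72 ± 0.18 (adjusted p = 3.71e-05) and Lyz2 by 1.19 ± 0.15 (adjusted p = 0.000139). For each of these 4 genes the lowest APdE9 array was above the highest wild-type array of adult cells. Sall1 was higher by 0.68 ± 0.11 (adjusted p = 0.000856), with its 2 probe sets at 0.18 and 1.19, of which 1 was called. Selplg, at -1.55, -1.74 and -1.97 on wild-type and -0.54, -0.92 and -1.53 on APdE9 arrays, differed by 0.76 ± 0.22 (adjusted p = 0.0293), and Srgn by 0.74 ± 0.19 (adjusted p = 0.0181). Itgam differed by 0.66 ± 0.20 (adjusted p = 0.0423) and Cd84, a SLAM family receptor, by 0.40 ± 0.11 (adjusted p = 0.0237).

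Tmem119 was lower on APdE9 sections by -0.85 ± 0.13 (limma adjusted p = 0.000545) and Arhgdib by -0.60 ± 0.12 (adjusted p = 0.00431). These are the same 2 genes that were higher in adult than in neonatal cells on wild-type sections, and both contrasts use the adult wild-type arrays. Csf1r was at 0.10 ± 0.25, Adgre1 at 0.41 ± 0.26, Ptprc at 0.37 ± 0.28, Aif1 at 0.31 ± 0.20, Cybb at 0.39 ± 0.28, Cx3cr1 at 0.16 ± 0.13, P2ry12 at 0.10 ± 0.12 and Spi1 at 0.39 ± 0.16, none of them called. Cd53 was at -0.28 ± 0.11 (adjusted p = 0.123), with probe sets at -0.72 and 0.17.

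Of the 11 calls in adult cells, 6 were kept in all 21 alternatives. With quantile normalization 4 genes were higher and 2 lower, and the adjusted p was 0.105 for Itgam, 0.128 for Cd84, 0.171 for Selplg, 0.326 for Srgn and 0.428 for Lyz2, whose difference became 0.22. Itgam was also lost without adult wild-type replicate 2 (0.138), adult APdE9 replicates 1 (0.0751) and 2 (0.161), neonatal wild-type replicate 3 (0.052) and neonatal APdE9 replicates 1 to 3 (0.0548, 0.0568 and 0.0551). Cd84 was lost without adult wild-type replicates 1 (0.0838) and 3 (0.0703) and adult APdE9 replicates 1 (0.0661), 2 (0.0617) and 3 (0.0501). Selplg was lost without adult wild-type replicates 2 (0.0787) and 3 (0.101) and adult APdE9 replicates 1 (0.103) and 2 (0.0952). Srgn was lost without adult wild-type replicates 2 (0.0571) and 3 (0.0541) and adult APdE9 replicate 1 (0.0702). Without neonatal wild-type replicate 1, which enters through the shared estimate of spread, Csf2rb, Cd52, Cd48, Spi1 and Ncf4 were called as well (adjusted p from 0.0247 to 0.0482). Leaving out other single arrays added Cd48, Csf2rb, Il10ra, Ly86 or Slc11a1.

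Cd84, Selplg and Cd68 were called higher on APdE9 sections at both ages, of 12 genes called higher in neonatal and 9 in adult cells. All of them lost the neonatal call on leaving out some single arrays, and Cd84 and Selplg the adult call too. Over all genes 83 (0.456%) were higher at both ages, of 220 higher in neonatal and 1503 higher in adult cells. The 2 section contrasts use different arrays, so whether the section did more at one age was tested directly as a difference of differences. It was called above 0 for 5 genes (5.19% of all genes) and called below 0 for 4 (4.88%). By sign alone 21 of the 46 lay above 0 and 25 below.

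Mpeg1, Itgb2, Lyz2, Sall1 and Cd68 had the larger section difference in adult cells. The difference of differences, adult minus neonatal, was 2.13 ± 0.20 for Mpeg1 (limma adjusted p = 5.28e-05), 1.73 ± 0.23 for Itgb2 (adjusted p = 0.00056) and 1.10 ± 0.21 for Lyz2 (adjusted p = 0.00569). It was 0.95 ± 0.15 for Sall1 (adjusted p = 0.00213), which was at -0.26 in neonatal and 0.68 in adult cells. For Arhgdib, Il7r, Tmem119 and Cd53 it was below 0, at -1.29 ± 0.17 (adjusted p = 0.000644), -1.16 ± 0.20 (adjusted p = 0.00282), -0.97 ± 0.18 (adjusted p = 0.00501) and -0.96 ± 0.16 (adjusted p = 0.00282). Arhgdib was higher on APdE9 sections in neonatal cells and lower in adult cells, and both were called. Tmem119 was at 0.11 ± 0.13 in neonatal cells (adjusted p = 0.824) and called lower in adult cells alone. The adult arrays of Il7r read -0.51, -0.54 and -0.38 on wild-type and -0.35, -0.48 and -0.17 on APdE9 sections, and those of Cd53 -0.46, -0.52 and -0.28 and -0.61, -0.80 and -0.68. The sections overlapped for Il7r in adult cells, and for Cd53 the adult APdE9 arrays were the lower ones. For Csf1r, Adgre1, Ptprc and Spi1 the difference of differences was between 0.01 and 0.14 and was not called.

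Cd68 (0.89 ± 0.25, limma adjusted p = 0.0463) was called only narrowly. It was lost on leaving out any of 10 of the 12 arrays (adjusted p from 0.0638 without adult APdE9 replicate 3 to 0.108 without adult APdE9 replicate 2), and kept without neonatal wild-type replicate 3 or adult wild-type replicate 1. Lyz2 was lost with quantile normalization (adjusted p = 0.213), and the other 7 calls were kept in all 20 alternatives. For Sall1 and for Cd53, 1 of 2 probe sets was called. Without neonatal wild-type replicate 1 the count was 12, with P2ry13 (0.00705), Cd52 (0.0148), Ly86 (0.0433) and Coro1a (0.00259) below 0 and Cd68 no longer called. Without neonatal APdE9 replicate 1, Themis2 was called below 0 (0.00367).

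**Figure D4:**
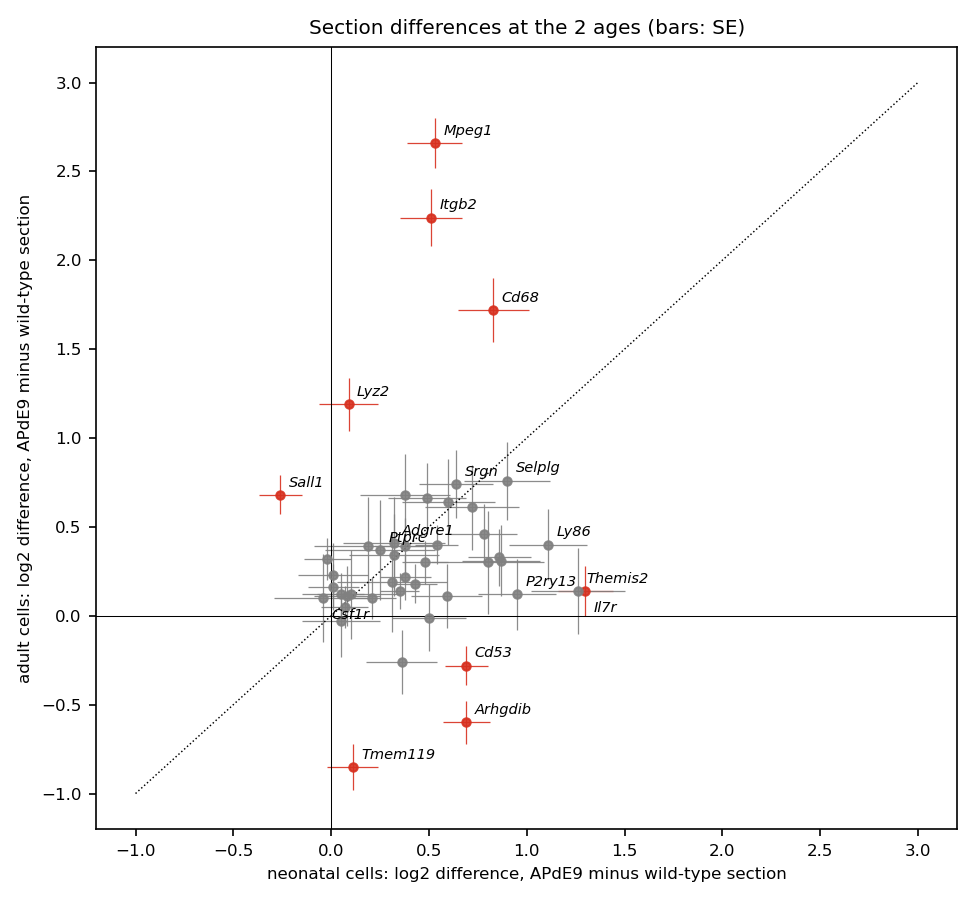
Log2 difference between APdE9 and wild-type sections in neonatal (horizontal axis) and adult cells (vertical axis) for the 46 genes, with bars for the SE, the dotted line for equal differences, and red for the 9 genes whose difference of differences was called. Mpeg1, Itgb2, Cd68, Lyz2 and Sall1 lie above the line and Il7r, Cd53, Arhgdib and Tmem119 below it.

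A change in the share of a cell type would move its genes by a similar log2 amount where no other cell contributes to them. In neonatal cells the section differences of 27 of the 46 genes lay within 2 SE of their median of 0.41, 11 above and 8 below, with an SD over the genes of 0.36. Without neonatal wild-type replicate 1, 24 lay within 2 SE of a median of 0.63, 9 above and 13 below, with an SD of 0.39. In adult cells 34 lay within 2 SE of the median of 0.30, 7 above and 5 below, with an SD of 0.60. For age 5 of 46 on wild-type and 7 on APdE9 sections lay within 2 SE of the median, and the SD was 1.95 and 1.68. The medians for age were larger too, at -2.47 and -2.54, while the median SE over the genes was 0.18 in each of these comparisons with all arrays. Counts within 2 SE and SDs therefore cannot rank the comparisons by how jointly the genes moved, as small differences lie close together whatever their source. Each gene's value is a mean of its probe sets, and these could differ widely, as the ranges of Laptm5, Ptprc and Csf1r show. What this adds to the spread over the genes was not tested. How a change of cell share and changes within cells add up to these values was not tested.

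Most of the spread of these genes over the arrays lay along a single direction, which the genes of large differences dominate. Not all genes followed it: Tmem119 and Arhgdib were highest on the adult wild-type arrays, and Siglech, Gpr34 and Runx1 were called in no comparison. The first principal component of the 46 genes held 96.9% of their spread over the 12 arrays, against 66.5% for all genes. Over the 6 neonatal arrays alone it held 75.7% (36.3% for all genes), over the 6 adult arrays 79.2% (64%), and over the deviations of arrays from their group means 49.2% (41.6%). Without neonatal wild-type replicate 1 these shares were 96.9% over 11 arrays (66% for all genes), 86.5% over the 5 neonatal arrays (46.4%) and 31.2% of the deviations (41.2%). The median over the 46 genes was 1.24, 0.76 and 0.85 in neonatal cells on wild-type sections and 1.59, 1.47 and 1.63 on APdE9 sections. It was -1.34, -1.19 and -1.30 in adult cells on wild-type and -0.89, -0.91 and -0.95 on APdE9 sections. By these medians the groups did not overlap at either age.

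**Figure D5:**
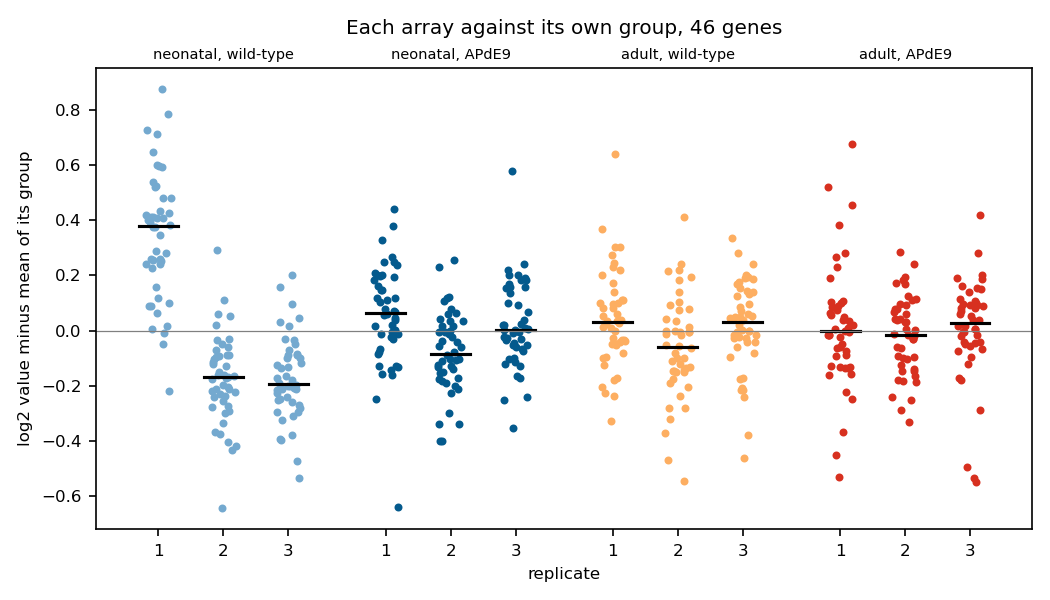
Value of each of the 46 genes on each array minus the mean of the gene in its group (vertical axis, log2), by group and replicate (horizontal axis), with a line for the median of each array. Neonatal wild-type replicate 1 has a median of 0.38 above its group mean, and the medians of the other 11 arrays lie closer to 0.

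Other genes of microglia moved with them. Of 26 further microglia genes 23 were lower in adult cells on wild-type sections with none higher (median -2.89), among them Ctss, the protease cathepsin S (-7.60 ± 0.22, limma adjusted p = 1.52e-10), and the complement subunits C1qc (-7.02 ± 0.21) and C1qb (-6.78 ± 0.31). On APdE9 sections 24 were lower and 1 higher (median -3.08). The 88.5% and 96.2% called for age stand against 30.1% and 23.5% of all genes. In neonatal cells 2 were higher on APdE9 sections with none lower, the Fc receptor gene Fcgr1 (0.78 ± 0.16) and Irf8 (0.70 ± 0.15), a partner of PU.1, with a median of 0.47. In adult cells 6 were higher, led by Ctss (3.53 ± 0.22, adjusted p = 7.5e-07) and the endotoxin co-receptor Cd14 (1.15 ± 0.24), and 1 was lower, Olfml3 (-1.22 ± 0.09). Between the sections 7.69% of the 26 were called in neonatal and 26.9% in adult cells, against 3.76% and 17.7% of all genes. For all 26 of these genes neonatal wild-type replicate 1 was the highest of its group. So it was for 7 of 10 ligands and colony factors (70%), 8 of 14 T, NK and B cell genes and 8 of 14 neuron genes (57.1% each), and 5 of 18 astrocyte markers (27.8%).

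Ligands and colony factors were followed as a list of 10: Csf1 and Il34, the ligands of CSF1R, with Csf2, Csf3, Tgfb1, Tgfb2, Cx3cl1, Il10, Il7 and Kitl. Of these 1 was higher on APdE9 sections in neonatal cells, Tgfb2 (0.49 ± 0.09, limma adjusted p = 0.0105), and 3 in adult cells, Tgfb2 (1.12 ± 0.09), the stem cell factor gene Kitl (0.81 ± 0.20) and Tgfb1 (0.50 ± 0.13), with none lower in either. Of all genes 1.21% were called higher in neonatal and 8.26% in adult cells. The medians of the 10 were 0.02 and 0.22, against 0.00 and 0.05 for all genes. In adult cells 8 of the 10 lay above 0, where 60% of all genes did. Whether the 10 differed from all genes or from the 46 genes was not tested. With age 2 were higher and 2 lower on wild-type sections, and 2 higher with none lower on APdE9 sections. The 40% and 20% called stand against 30.1% and 23.5% of all genes. Il7, the ligand of Il7r, was higher in adult cells by 1.86 ± 0.16 and 1.59 ± 0.16 on the 2 sections, where Il7r was lower.

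Markers of other cells gave the setting of these values. Of 18 astrocyte markers 15 were lower and 2 higher in adult cells on wild-type sections (median -1.31), including Aldoc (-4.97 ± 0.08) and Gfap (-4.24 ± 0.11), and 13 lower and 1 higher on APdE9 sections. In neonatal cells 8 were lower on APdE9 sections and none higher (median -0.44), among them Aldoc (-1.05 ± 0.08), Gfap (-1.02 ± 0.11) and Gpr37l1 (-0.87 ± 0.10). In adult cells 7 were higher and 4 lower (median -0.10). Between the sections 44.4% were called in neonatal and 61.1% in adult cells, against 3.76% and 17.7% of all genes. For age 94.4% were called on wild-type and 77.8% on APdE9 sections, against 30.1% and 23.5% of all genes. The median of the 18 markers ranged from 0.78 to 0.88 over the 3 neonatal wild-type arrays, from 0.45 to 0.57 on neonatal APdE9, from -0.57 to -0.53 on adult wild-type and from -0.75 to -0.61 on adult APdE9 arrays. Their part in the differences of the microglia and macrophage genes was not tested.

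Markers of other leukocytes were counted in the same way. Of 14 T, NK and B cell genes 1 was called in adult cells, Klrd1 (0.50 ± 0.12), and none in neonatal cells or with age on either section, where limma gave 0 in neonatal cells, 1 on wild-type and 2 on APdE9 sections at an unadjusted p under 0.05. Of 12 genes of neutrophils and monocytes 1 was higher in neonatal cells on APdE9 sections, the antimicrobial peptide gene Camp (0.84 ± 0.18), 2 were higher and 1 lower in adult cells, and with age 1 was higher and 2 lower on each section. The 3 called of 12 (25%) stand against 17.7% of all genes called in either direction for the section in adult cells, and against 30.1% and 23.5% for age on wild-type and APdE9 sections. Plac8 was the gene higher with age, by 3.68 ± 0.20 on wild-type sections (12.8-fold, limma adjusted p = 2.75e-08) and 3.67 ± 0.20 on APdE9 sections, and it was lower on APdE9 sections in adult cells (-0.73 ± 0.20). Their medians lay between -0.04 and 0.08 in the 5 comparisons. The T, NK and B cell list had array medians between -0.13 and 0.08.

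Oligodendrocyte, neuron, endothelial and fibroblast or mural markers were counted too. Of all genes 3.76% were called for the section in neonatal and 17.7% in adult cells. For age 30.1% were called on wild-type and 23.5% on APdE9 sections. In the same order neuron genes were at 0%, 14.3%, 28.6% and 28.6%, and endothelial genes at 9.09%, 0%, 63.6% and 63.6%. Of 16 oligodendrocyte genes 2 were higher and 2 lower in neonatal cells and 6 higher and 1 lower in adult cells on APdE9 sections, with Mbp higher at both ages (1.80 ± 0.20 and 1.78 ± 0.20). With age 3 were higher and 5 lower on wild-type sections and 4 higher and 3 lower on APdE9 sections. Of 14 neuron genes none was called in neonatal cells, 2 were lower in adult cells, and with age 2 were higher and 2 lower on wild-type sections and 1 higher and 3 lower on APdE9 sections. Of 11 endothelial genes 1 was lower in neonatal cells and none was called in adult cells, and with age 3 were higher and 4 lower on wild-type sections and 4 higher and 3 lower on APdE9 sections. Of 12 fibroblast and mural genes 3 were higher and 1 lower in neonatal cells and 2 higher and 5 lower in adult cells on APdE9 sections, the largest being Tagln in adult cells (-3.37 ± 0.15). With age 6 of them were higher and none lower on wild-type sections, and 2 were higher and 2 lower on APdE9 sections. The array medians of these 4 lists lay between -0.21 and 0.56, and their part in the results above was not tested.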

How the data were processed

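Signals of the 12 arrays were computed with RMA, per the submitters' processing notes. For 8 arrays the authors' deposited columns were read as log2 values. They are centred: all 45095 complete probe sets have a median of 0 (tolerance 1e-06). The log base is not given in the sources used here. The deposited columns of the other 4 arrays were recorded as a score, because 6 values there exceeded 100 in size. These were set to missing (none in the 79 probe sets described), and the rest was used as log2. Of 45101 probe sets 64 controls were left out. Of 45037 tested, 34945 had a single gene in the supplied annotation, 932 several and 9160 none, and 34741 matched the RefSeq table that gave the symbols. Single-gene probe sets of a gene were averaged, leaving out those with a missing value where others remained. Array medians lay between -0.038 and 0.034. No array's level over background could be computed.

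Group means of the 4 groups were estimated in 1 fit over the 12 arrays, using limma 3.58.1 (lmFit and eBayes, prior degrees of freedom 3.97, residual 8) in R (version 4.3.3), and tables were handled with data.table (1.17.8). Benjamini-Hochberg adjustment ran over 18193 genes, with a threshold of 0.05. The fit was tested on simulated data. Summaries were made with Python 3.11.15, pandas 2.3.3 and numpy 2.4.6 and figures with matplotlib 3.10.9. Lists were counted without set tests. The members, gene lists and tests were chosen with earlier results of these data known. Array values are given for the 8 called members with the largest difference in each of 5 comparisons and for a fixed panel of 11 members (Csf1r, Aif1, Cx3cr1, P2ry12, Tmem119, Itgam, Ptprc, Cd68, Spi1, Cybb and Adgre1), and up to 3 called genes are named per other list.

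The main fit held no term for the replicate number, so its counts, SEs and adjusted p are unpaired. Replicate numbers in the titles were read as pairs only where the deviations of every pair of arrays from their groups correlated by over 0.1. For the section in neonatal cells they correlated at 0.305, 0.147 and 0.519. On APdE9 sections, the pairs for age were at 0.46, 0.206 and 0.473. For these comparisons the fit with the replicate block, an alternative, called 17 and 41 members, against 12 and 41 in the main fit. Other settings tried were array weights, quantile normalization, centring on array medians, the replicate block, only the arrays compared, robust variances, probe-set medians, probe sets as the unit, a filter that dropped 40% of genes by SD, a threshold of 0.01 and leaving out each array. With probe sets as the unit, a gene was represented in each comparison by its probe set of smallest p. A call could thus be kept there while other probe sets of the gene did not pass. Promoters came from RefSeq, and 1 listed gene is not analysed here.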

Additional observations from a re-analysis of the deposited data

Results flagged for a closer look

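The section effect differed between the ages for 9 of the 46 genes, by the interaction term of the limma fit (adult minus neonatal, log2). The difference was positive for Mpeg1 (2.13), Itgb2 (1.73), Lyz2 (1.10), Sall1 (0.95) and Cd68 (0.89). It was negative for Arhgdib (-1.29), Il7r (-1.16), Tmem119 (-0.97) and Cd53 (-0.96). The array values and adjusted p of each are given in the text above. For Mpeg1, Itgb2, Lyz2 and Cd68 the adult wild-type arrays were the lowest of all 12, and for Il7r and Cd53 the neonatal APdE9 arrays were the highest.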

How the results depend on the processing

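No alternative reversed a called direction of any of the 46 genes. The count of members called for age stayed between 42 and 43 on wild-type and between 40 and 41 on APdE9 sections on leaving out single arrays. For the section in neonatal cells it ranged from 2 to 23 (12 with all arrays), in adult cells from 8 to 16 (11) and for the difference of section effects from 8 to 12 (9). In neonatal cells it was 26 with array weights, 5 with only the arrays compared and 4 at a threshold of 0.01. In adult cells it was 6 with quantile normalization and 7 at a threshold of 0.01, and the difference gave 14 with array weights. The cause of these shifts was not tested, except that a stricter threshold calls fewer genes by construction. Array weights gave neonatal wild-type replicate 2 a weight of 7.65, against 0.557 to 1.48 for the other 11 arrays.

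Over all genes, the neonatal count (220 higher and 464 lower) was 832 and 1328 with array weights, 86 and 186 with only the arrays compared, 76 and 187 when neonatal wild-type replicate 2 was left out, 182 and 299 without replicate 3 of that group, 127 and 284 without replicate 1 and 153 and 283 without replicate 2 of the neonatal APdE9 group, and 74 and 174 at 0.01. The adult count (1503 and 1710) was 995 and 1179 without adult wild-type replicate 2 and 804 and 1040 at 0.01. That of the difference (944 and 887) was 1825 and 1602 with array weights, 630 and 578 without neonatal and 654 and 564 without adult wild-type replicate 2, and 423 and 395 at 0.01. Age on wild-type sections (2718 and 2764) gave 1796 and 2079 and on APdE9 sections (2121 and 2158) 1260 and 1590 at 0.01.

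With the replicate number as a block, 16 members were called for the section in adult cells, 10 for the difference and 42 for age on wild-type sections. For the adult section and for age on wild-type sections the numbers were not read as pairs, because in each a correlation fell under 0.1. The pairs correlated at 0.348, -0.147 and 0.496 for the adult section and at 0.404, 0.0247 and 0.405 for age on wild-type sections. There 4 and 5 of the 6 samples correlated best with their own number, and for the section in neonatal cells 5 of 6 did. Whether arrays of the same number were handled together was not tested. The block changed no call for age on APdE9 sections.

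The number of arrays limits the precision, and centred values leave signal over background unknown. Where the probe sets of a gene disagree, its mean understates the probe sets that differ most. Replicates were pools.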

Other observations

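Genes of border-associated macrophages, which line the meninges and vessels of the brain, were followed as a list of 10. With age 6 were lower and 2 higher on wild-type sections and 7 lower and 1 higher on APdE9 sections. The 80% called on each section stand against 30.1% and 23.5% of all genes. Pf4, a chemokine stored by platelets and border macrophages, was lower in adult cells by a log2 difference of -5.56 ± 0.24 on wild-type (limma adjusted p = 3.49e-09) and -5.63 ± 0.24 on APdE9 sections. The scavenger receptor gene Stab1 was at -3.10 ± 0.25 and -2.23 ± 0.25, and the mannose receptor gene Mrc1 at -1.56 ± 0.23 and -1.16 ± 0.23. Between the sections Cbr2 was higher on APdE9 in neonatal cells (1.12 ± 0.13) and lower in adult cells (-0.69 ± 0.13), with a difference of -1.81 ± 0.19 (limma adjusted p = 0.000113). Stab1 was higher on APdE9 sections in adult cells (1.05 ± 0.25).

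For some of the 46 genes the probe sets of a single gene spanned a wide range of age differences on wild-type sections. The 5 probe sets of Laptm5 ran from -7.84 to 0.06 with 4 called, the 2 of Cd84 from -4.16 to -0.23, the 2 of Rac2 from -3.42 to -0.09, the 2 of Ikzf1 from -2.19 to -0.16, and the 3 of Coro1a from -4.20 to -0.30. For Cd84, Rac2 and Ikzf1 only 1 of the 2 probe sets was called. On APdE9 sections these ranges were -7.40 to 0.11 for Laptm5, -4.57 to -0.09 for Cd84, -3.79 to -0.04 for Rac2, -1.99 to 0.06 for Ikzf1 and -4.91 to -0.82 for Coro1a.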
